A study of Ovis aries with 3 samples.

Results

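Interferon tau and the pregnancy glycoproteins of the trophoblast were followed in RNA of extracellular vesicles, small membrane sacs shed by cells, of the sheep conceptus. The rows were chosen from the deposited table by name and description. They were TP-1, every row described as interferon tau, trophoblast protein, pregnancy-specific antigen, pregnancy-associated glycoprotein or trophoblast Kunitz, and every row named PAG with a number. PAG1 was left out, since it is described as a phosphoprotein membrane anchor and is a different gene from the placental glycoproteins. The rule gave 5 members of 25197 rows, namely TP-1, ENSOARG00000011496, PAG4, PAG11 and PAG6. The words trophoblast protein and trophoblast Kunitz matched 0 rows.

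All 3 libraries belonged to 1 group, vesicles of conceptuses at day 14 of pregnancy, and there was no control group. The conceptus, that is the embryo with its membranes, was cultured whole for 24 h, each in its own dish, in 10 ml of medium with 10% fetal bovine serum from which exosomes had been removed. Vesicles were precipitated from the filtered medium with ExoQuick-TC, and libraries were made from 5 ng of RNA with the SMART-Seq v4 kit. Each library has its own title number, but the labels do not say what the numbers stand for. Nothing else states that the libraries came from separate animals, so a p-value over them speaks only of these libraries, whose spread may be technical.

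Interferon tau is the type I interferon by which a ruminant conceptus announces itself. It is secreted by the mononuclear cells of the trophectoderm, the outer epithelium of the conceptus, and acts on the uterine epithelium to prevent the prostaglandin pulses that would end the life of the corpus luteum. Pregnancy-associated glycoproteins are secreted trophoblast proteins of the aspartic proteinase family. Many of them come from binucleate cells and reach the mother's blood, where they serve as a pregnancy test.

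The libraries differed in scale. Values were taken as RPKM-type, that is, reads scaled by the authors to gene length and library depth. They summed to 17480.7, 40060.3 and 9531.8 in libraries 1, 2 and 3, so that the highest sum was 4.20 times the lowest. Of 981 rows with a value of 1 or more in every library, which are called detected here, 742 (75.6%) had their highest value in library 2. Members are therefore given by library, as ranks, and as ratios within a library.

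Of the 5 members, 2 were detected (3.89% of all 25197 rows were). These were ENSOARG00000011496, which the table describes as a pregnancy-specific antigen and which is called the antigen row here, and TP-1, described as the precursor of interferon tau-1. PAG4, PAG11 and PAG6 were not detected. The count was also 2 at a detection value of 0.5, which 7.56% of all rows reached, and at a value of 2, which 1.89% reached. It was 2 again without library 1, 2 or 3, when 5.06%, 4.45% and 7.29% of all rows were detected.

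The antigen row had values of 16.7, 200.4 and 14.3 in libraries 1, 2 and 3. Its mean was 77.1 ± 107 (SD, n = 3), and the mean of libraries 1 and 3 alone was 15.5. Library 2 stood far above the other pair, which differed little from each other. The row held rank 125, 17 and 54 among all rows of its library and rank 27 by mean. Its share of the summed value was 0.0955% in library 1, 0.50% in library 2 and 0.150% in library 3.

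TP-1 had values of 6.7, 26.2 and 4.7 in libraries 1, 2 and 3. Its mean was 12.5 ± 11.9 (SD, n = 3), and 5.70 over libraries 1 and 3. Library 2 was again the highest, but the 3 libraries placed the gene at similar ranks, 248, 183 and 279, and it held rank 196 by mean. Its share of the summed value was 0.0383%, 0.0654% and 0.0493%, a mean of 0.0510% ± 0.0136 (SD, n = 3).

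**Figure D1:**
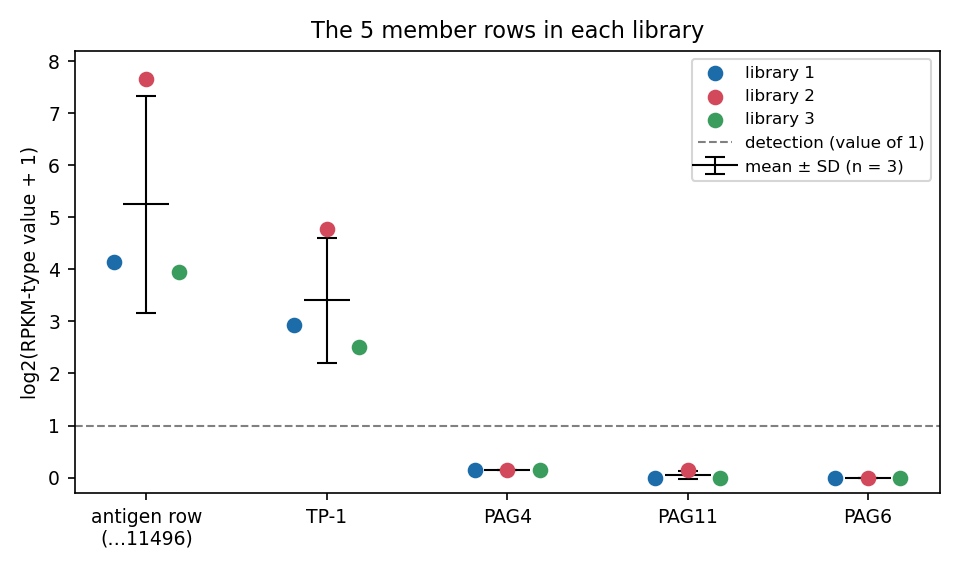
Values of the 5 members on the log2(RPKM-type value + 1) scale, with points for the 3 libraries, a bar for the mean and whiskers for the SD (n = 3). The antigen row and TP-1 lie above the dashed detection line in every library and are highest in library 2, while PAG4, PAG11 and PAG6 lie at or near 0.

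The other members were at the floor of the table. PAG4 stood at 0.1 in each library, a value at or below which 59.1%, 51.7% and 70.3% of all rows lay in libraries 1, 2 and 3. PAG11 stood at 0.1 in library 2 and was listed at 0 in libraries 1 and 3. PAG6, described as the precursor of pregnancy-associated glycoprotein 6, was listed at 0 in all 3 libraries, as were 5446 rows (21.6%). The file holds 1 decimal, so a listed 0 means a value under 0.05, and these 3 rows differed by at most 0.1, the smallest step of the file.

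The depth behind the detected members was estimated from 1012 rows named U6, a short nuclear RNA whose copies have nearly the same length. In these rows 1 read was worth 0.423, 0.542 and 0.449 in libraries 1, 2 and 3. A gene as short as U6 would need 15.9, 48.3 and 10.5 reads to give the values of TP-1, and 39.5, 370 and 31.8 reads to give those of the antigen row. Interferon and aspartic proteinase messengers are longer than U6, so the true numbers of reads were higher. These figures bear on counting error only. On this measure library 2 was the shallowest and had the highest values, with library 1 at 1.28 and library 3 at 1.21 times its depth.

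The identity of the detected rows was traced through the protein accessions in their descriptions. Of the 5 members, 4 matched a gene of the RefSeq annotation of ARS-UI_Ramb_v3.0, and PAG4 did not match. PAG11 was matched by its symbol, since it and PAG4 are described only as uncharacterized. ARS-UI_Ramb_v3.0 is a later sheep assembly than Oar_v3.1, which the submitters' processing notes name. In the RefSeq annotation TP-1 is the direct neighbour of IFNE, the gene of interferon epsilon, and lies on the same chromosome as further interferon tau genes. IFNT5 is separated from it by 2 annotated genes and IFNT6 by 5. The deposited table has 1 row described as interferon tau, and whether reads from near-identical copies were counted in TP-1, divided or dropped is not given in the sources used here. Its level is therefore uncertain as that of a single gene.

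The antigen row matched the gene LOC443348. This gene lies on the same chromosome as PAG6, PAG9 and PAG11, with 5, 11 and 17 annotated genes between. The division of reads among members of this family is uncertain in the same way as for interferon tau.

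The antigen row exceeded TP-1 in 3 of 3 libraries. If the values are RPKM, as taken here, they are per length and can be compared between genes of a library. The comparison is limited, since how reads from near-identical copies of either family were counted is not given. The ratio of the antigen row to TP-1 was 2.49, 7.65 and 3.04 in libraries 1, 2 and 3. On the log2(value + 1) scale the antigen row minus TP-1 was 1.84 ± 0.92 (SD, n = 3). A two-sided exact permutation test by sign flips gave p = 0.25, and this is the smallest p that 3 libraries allow. Any 3 differences of the same sign give it, whatever their spread. The difference was 1.20, 2.89 and 1.42 in libraries 1, 2 and 3, and 1.31 on average without library 2.

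**Figure D2:**
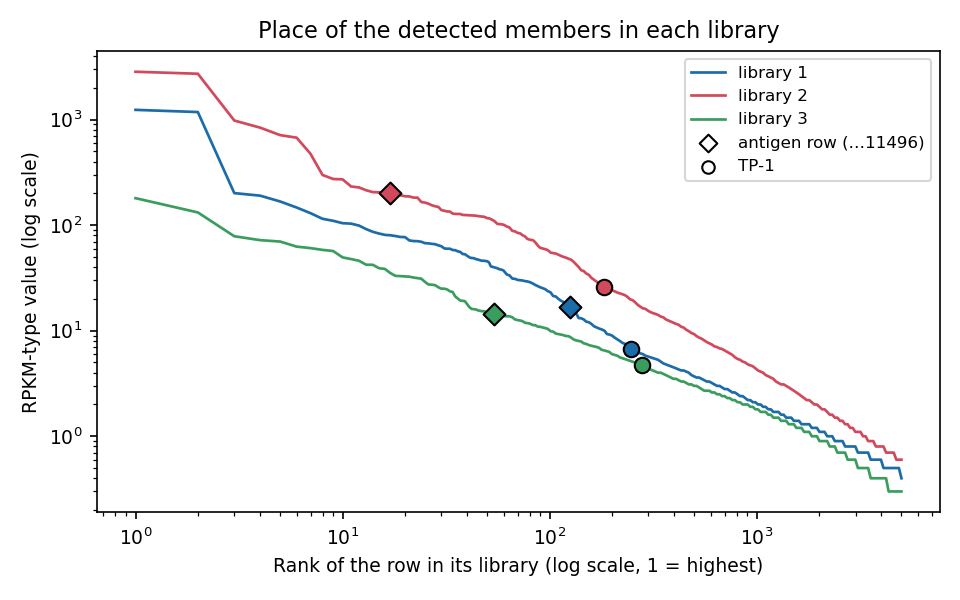
RPKM-type value against rank in each library, both on log scales, with 1 line per library. Diamonds mark the antigen row at ranks 125, 17 and 54 and circles mark TP-1 at ranks 248, 183 and 279 in libraries 1, 2 and 3.

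In the order of means, TP-1 stood between TSPAN1, a tetraspanin, and S100A14, a calcium-binding protein. TSPAN1 had values of 3.5, 27.1 and 7.0 and S100A14 of 5.0, 23.6 and 8.9 in libraries 1, 2 and 3. The antigen row stood between the 5S ribosomal RNA copy 5S_rRNA_296, at 53.0, 118.3 and 60.6, and the ribosomal protein row RPL23A_1, at 77.3, 125.1 and 29.0. Its place next to these rests on library 2, since in libraries 1 and 3 both were higher than the antigen row and in library 2 both were lower. GAPDH, the glycolytic enzyme often used as a reference, averaged 101 ± 71.2 (SD, n = 3) and stood at 71.7, 182.4 and 49.5 in libraries 1, 2 and 3. In library 2 alone the antigen row was higher than GAPDH.

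The detected members differed in how far library 2 stood apart. The value of the antigen row in library 2 was 12.0 times that in library 1 and 14.0 times that in library 3. For TP-1 these ratios were 3.91 and 5.57, for the median of the detected rows 2.23 and 2.76, and for the summed value 2.29 and 4.20. Library 2 minus the mean of libraries 1 and 3, in log2(value + 1), was 3.61 for the antigen row and 2.04 for TP-1, beside a median of 1.15 over the 981 detected rows. A larger difference was found in 5 detected rows (0.510%) for the antigen row and in 168 (17.1%) for TP-1. These shares are not matched for level. The detected rows had medians of 3.1, 6.9 and 2.5 in libraries 1, 2 and 3, and the scale understates differences of low genes. With 1 library on one side, these differences have no replicate check and no test.

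Of the 5 rows with a larger library 2 difference than the antigen row, 4 have no symbol and are described as uncharacterized. The other is MGST1, a microsomal glutathione transferase, at 17.3, 165.7 and 3.4 in libraries 1, 2 and 3. These rows were looked up after their values were seen. Scaling every library to the same sum gave a library 2 difference of 2.02 for the antigen row and 0.54 for TP-1, with a median of -0.17 over the detected rows. A larger difference was then found in 5 detected rows for the antigen row and in 184 for TP-1.

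**Figure D3:**
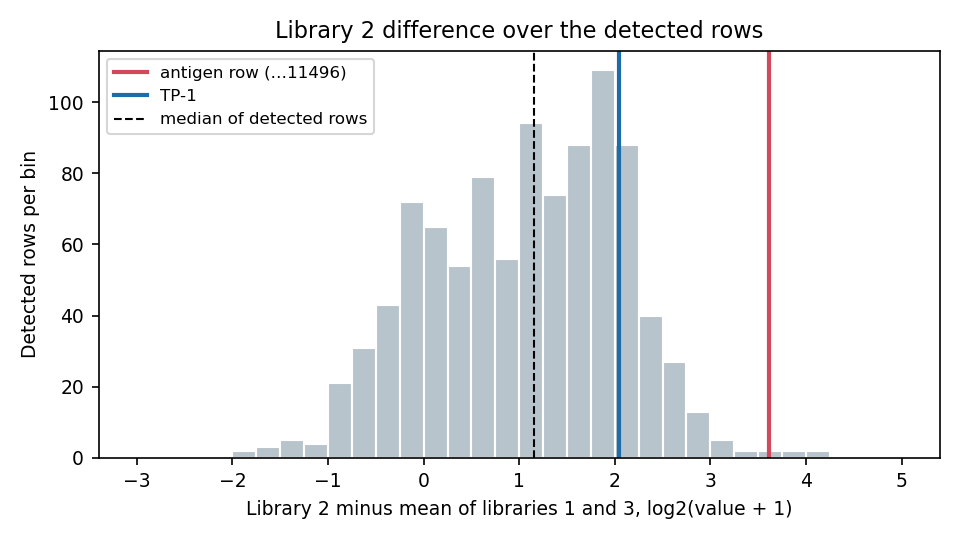
Number of detected rows (n = 981) per bin of library 2 minus the mean of libraries 1 and 3, in log2(value + 1). The antigen row lies at 3.61, in the upper tail, TP-1 lies at 2.04 and the dashed median at 1.15.

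Within each library the members were also set against the other detected trophectoderm genes. KRT8, an epithelial keratin, leads that list and itself had a library 2 difference of 2.33, so a ratio to it takes out more than the scale of the library. The ratio of TP-1 to KRT8 was 0.255, 0.189 and 0.172 in libraries 1, 2 and 3, so that the highest was 1.48 times the lowest, whereas the TP-1 values themselves spanned 5.57 times. TP-1 over S100G, a calcium-binding protein of the same list, was 2.58, 2.20 and 2.94. TP-1 over EPCAM, an epithelial adhesion molecule, was 1.97, 4.03 and 3.92, with library 1 the lowest, whereas library 1 was the highest in the ratio to KRT8. The ratio of the antigen row to KRT8 was 0.635, 1.44 and 0.524, with the highest 2.75 times the lowest. Only in library 2 did the antigen row exceed KRT8, which stood at 26.3, 138.9 and 27.3. The antigen row over EPCAM was 4.91, 30.8 and 11.9, again with library 2 the highest.

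**Figure D4:**
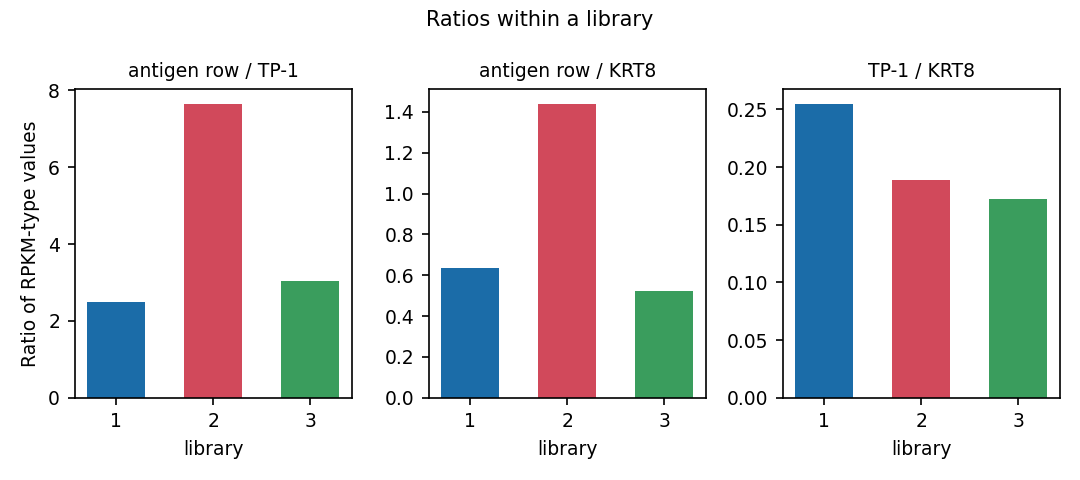
Ratios of RPKM-type values within each library, as bars from 0 for libraries 1, 2 and 3. The antigen row over TP-1 and over KRT8 is highest in library 2, at 7.65 and 1.44, and TP-1 over KRT8 stays between 0.172 and 0.255.

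Genes with a pattern like that of TP-1 were common. The likeness was the largest absolute difference over the 3 libraries between centred log2(value + 1) values, among detected rows with a symbol and a mean of at least 0.5 times that of the member. Of 243 such rows, 29 came within 0.25 of TP-1. The nearest were ALDOA, a glycolytic aldolase, at a distance of 0.015, CAPG, an actin-capping protein, at 0.051, DBI, which binds acyl-CoA, at 0.068, TXN, a thioredoxin, at 0.069 and ATP5O, which bears the name of an ATP synthase subunit, at 0.080. ALDOA stood at 3.7, 15.4 and 2.5 in libraries 1, 2 and 3.

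For the antigen row, 0 of 45 such rows came within 0.25, and 0 of 79 when rows without a symbol were included, an alternative chosen after seeing the data. Nearest of these 79 was ENSOARG00000005816, described as uncharacterized, at 0.436. Among the 5 nearest with a symbol were UBB, a ubiquitin gene, at 0.558, KRT8 at 0.855, FTH1, the ferritin heavy chain, at 0.897 and TXN at 0.981. UBB stood at 38.3, 214.2 and 21.1 in libraries 1, 2 and 3. TP-1 itself lay at 1.05 from the antigen row. With 3 libraries these distances describe the profiles and say little more. The counts of 0 cover only rows that met the limit on the mean, and library 2 decided the mean of the antigen row. ENSOARG00000019688, an uncharacterized detected row under that limit, had 1.3, 28.9 and 1.1 in libraries 1, 2 and 3. It was picked afterwards for its library 2 difference of 3.77, and its distance was not computed. Whether lower rows share the profile of the antigen row was therefore not tested.

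Relatives of the members by family were looked at next. In the type I interferon family, 3 rows matched. TP-1 was detected, and IFNE and IFNK, interferons of epithelia, each stood at 0.2, 0 and 0.2 in libraries 1, 2 and 3. For relatives of the glycoproteins among the aspartic proteinases 12 symbols were fixed and 8 matched a row. CTSD, CTSE, PGA and PGA5 had no row. Of the 8 rows 0 were detected, which is near the 3.89% of all rows. BACE2, a membrane-bound protease, led them at 3.0, 3.6 and 0.4, and CYM, the milk-clotting chymosin, stood at 0.2 in each library. The median log2(value + 1) of this list was 0.22, against 0.18 over all rows.

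Among genes known to regulate interferon tau, 0 of 17 matched rows were detected, near the 3.89% of all rows, and their median log2(value + 1) was 0.22, against 0.18 over all rows. GATA3, a trophectoderm transcription factor, stood at 0.9, 0.9 and 3.0, FOSL1, a partner of JUN, at 0.5, 1.1 and 0.1, and the coactivator EP300 at 0.5, 0.2 and 0.4. CDX2, a trophectoderm regulator that activates interferon tau genes, stood at 0.5, 0.2 and 0. TP-1 was higher than each of these in every library.

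The receptor and signalling list for type I interferons had 0 of 11 rows detected, near the 3.89% of all rows, with a median of 0.18 that equalled that of all rows. The receptor chain IFNAR2 stood at 0.1, 0.3 and 0.2, and JAK1, a kinase bound to the receptor, at 0.4, 0.3 and 0. IFNAR1E, described as the other receptor chain, was not matched by the list and stood at 0.1 in each library.

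Among 25 rows of the interferon response, 1 was detected (4%, beside 3.89% of all rows). This was B2M, the light chain of class I antigen-presenting molecules, and TP-1 over B2M was 1.97, 1.82 and 1.31. IFI6, which stood at 18.8, 47.0 and 0, and XAF1 and EIF2AK2, listed at 0 in library 3, missed detection there, where TP-1 was at 4.7. Without library 3, the list had 4 rows detected, beside 7.29% of all rows. ISG17, described as an interferon-stimulated gene and chosen from outside the list once its values were known, was at 4.6 in library 1, 16.5 in library 2 and 0.3 in library 3.

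Markers of the trophoblast were counted by stage. Of 19 trophectoderm rows 4 were detected (21.1%, beside 3.89% of all rows), namely KRT8, TP-1, S100G and EPCAM, the last at 3.4, 6.5 and 1.2. The other rows were not, among them TFAP2C, CDX2 and TFAP2A, with mean log2(value + 1) of 0.44, 0.28 and 0.09. The median of the list was 0.60, against 0.18 over all rows. TP-1 is itself a member of this list. For binucleate cells and later trophoblast 18 symbols were fixed, of which 10 matched a row. Those without a row include CSH1, CSH2, PL, PRP1 and PRP3, so the list covers binucleate cells poorly. Of the 10 rows 0 were detected, near the 3.89% of all rows, and their median log2(value + 1) was 0.35, against 0.18 over all rows. CYP11A1, which starts steroid synthesis, stood at 0.8, 0.5 and 2.2, MFSD2A, in humans a receptor for a syncytin, at 1.7, 0.2 and 0, and PRL, the hormone prolactin, at 0, 0 and 1.2.

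Genes of uterine epithelium, the maternal tissue that the conceptus touches, were detected in 4 of 15 rows (26.7%, beside 3.89% of all rows). The median log2(value + 1) of the list was 0.45, against 0.18 over all rows. Most of its rows were not detected, among them PGR, FOXA2 and ESR1, with means of 0.20, 0.18 and 0.09 on that scale. Values summed over the list were 67.1, 188.3 and 11.6 in libraries 1, 2 and 3. LGALS15, a galectin, led them at 18.8, 74.2 and 4.5. The sum was highest in library 2, as were the 2 detected members and 75.6% of all detected rows. Libraries 1 and 3 differed far more in the uterine sum than in the members. The part of these genes in the members' levels was not tested. In library 3, the uterine sum was the lowest while TP-1 over LGALS15 was 1.04, against 0.356 and 0.353 in libraries 1 and 2. Leukocyte rows (0 of 13) and erythroid rows (0 of 6) were not detected, near the 3.89% of all rows. Their summed values lay between 3.2 and 6.7 and between 0.8 and 1.4. The leading leukocyte rows, AIF1 at 0.3, 2.8 and 4.1 and CD74 at 1.5, 1.3 and 0.1, each missed detection in 1 library.

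**Figure D5:**
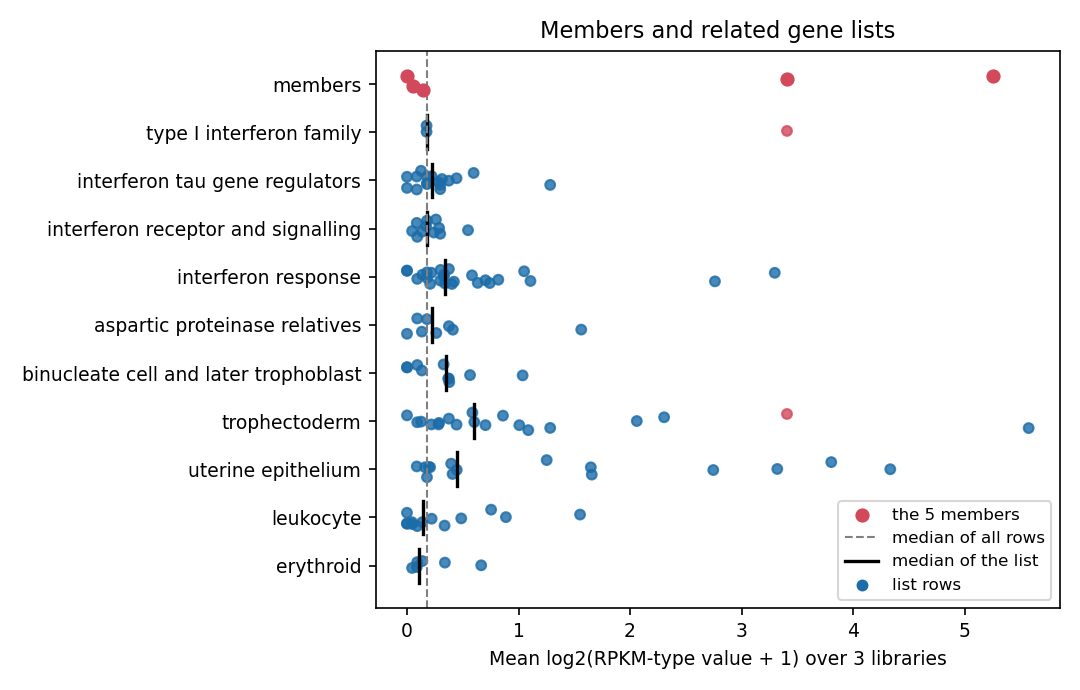
Mean log2(RPKM-type value + 1) over the 3 libraries for the 5 members (red) and for each row of 10 related gene lists (blue, TP-1 in red), with a tick at the median of each list and a dashed line at the median of all rows, 0.18. The antigen row and TP-1 lie far to the right of the rows for interferon tau regulators, receptors and aspartic proteinases.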

How the data were processed

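The authors deposited 1 table with a value for each of 25197 rows in 3 libraries and their mean. The unit of the deposited values was taken as RPKM, since short genes step by more than long ones and the columns have no fixed sum. FPKM would look alike. Per the submitters' processing notes, the build is Oar_v3.1. Sources used here name neither the aligner nor the counting program.

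Columns were assigned by the titles of the labels. Members were found by text, in Python 3.11.15 with pandas 2.3.3 and NumPy 2.4.6. The members and the 10 gene lists were chosen with earlier results of these data known. Levels were compared on the log2(value + 1) scale, which understates differences of low genes. The difference between the 2 detected members was tested by exact sign flips. Genes named were the members and up to 3 leading members of each list. Further names came from the 5 nearest to each detected member in pattern or in order of the mean. Others are said to be chosen later or to have no row, or serve a comparison (CDX2, CYM, EIF2AK2, GAPDH, IFNAR2, EPCAM, ESR1, FOXA2, PGR, TFAP2A and TFAP2C). The depth step and the pattern search were run on simulated data, which shows only that they recover planted steps and near-exact copies of a profile. Scaling, pseudocounts of 0.1 and 0.5, detection values of 0.5 and 2 and leaving out each library were tried. No sequence was printed, and 2 genes chosen by this rule are not reported here.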

Additional observations from a re-analysis of the deposited data

How the results depend on the processing

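The count of 2 detected members and the order of the antigen row and TP-1 kept under every alternative tried. Neither could have changed. The detected members were at 4.7 or more in every library and the others at 0.1 or less. The antigen row exceeded TP-1 in every library, which scaling, pseudocounts or leaving out a library cannot reverse. The alternatives do not bear on how reads from near-identical copies were counted. The antigen row minus TP-1 ranged from 1.31 to 2.16 when 1 library was left out, and was 1.94, 1.89 and 1.87 with a pseudocount of 0.1, with one of 0.5 and with equal summed values. The library 2 difference of TP-1, 2.04 as deposited, was 0.54 with equal summed values and 0.84 with equal medians over detected rows, where the median of those rows was -0.17 and 0.10. That of the antigen row was 2.02 and 2.34. Of 121 rows in any gene list 9 were detected (7.44%, beside 3.89% of all rows). The count was 5 at a detection value of 2 and 14 at 0.5, which 1.89% and 7.56% of all rows reached. It was 11, 9 and 16 without library 1, 2 or 3, when 5.06%, 4.45% and 7.29% of all rows were detected. Mean levels fell to 15.5 for the antigen row and 5.70 for TP-1 without library 2, the library that decided the means. Scaling to equal sums, chosen after seeing the data, gave means of 55.6 and 11.4. Values near 0.1 are limited by rounding. No paired analysis was possible because there is 1 group, while the 2 detected members were compared within each library.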
